A study of Homo sapiens with 6 samples.

Results

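The genes described here are the 70 protein-coding genes outside chromosome Y whose symbols begin with EIF and a digit, or with EEF1 or EEF2, out of 58735 genes in the deposited table, of which 19951 are protein-coding. They encode the translation initiation and elongation factors together with the kinases, methyltransferases, binding repressors and readthrough genes that carry the same symbols. The symbol rule used no measured value. RNA-seq was performed on PC9-BrM3 cells, which come from the EGFR-mutant lung adenocarcinoma line PC9 and were obtained from brain metastases through repeated passage in immunodeficient mice, to ask which transcripts change once AKR1B10, an aldo-keto reductase, is silenced. BrM3-shAKR1B10 (labelled AKR1B10 knockdown, 3 libraries) carried an shRNA against AKR1B10, vector 1 by the figure legends of the study, and BrM3-shNC (labelled WT, 3 libraries) carried a negative control shRNA. Both shRNAs were delivered in the LV2 lentiviral vector, and both groups were kept in routine culture. All libraries came from 1 cell line and 1 targeting vector, and the labels do not say whether the replicates were separate cultures, so p-values measure only the spread between these libraries.

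Initiation factors bring the small ribosomal subunit, the initiator tRNA and the capped mRNA together and select the start codon, and elongation factors then deliver aminoacyl-tRNAs and move the ribosome along the message. The cap-binding protein eIF4E and the initiator tRNA carrier eIF2 are the best known points of control. eIF4E is held back by the 4E-binding proteins, which MTOR phosphorylates and releases, and eIF2 is inactivated by stress-activated kinases that phosphorylate its alpha subunit.

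Between 16964504 and 18709028 reads fell on genes in each library. AKR1B10 stood at 108, 107 and 110.2 FPKM (reads scaled by gene length and a library size) in BrM3-shAKR1B10 replicates 1 to 3 and at 799, 775 and 772 FPKM in BrM3-shNC, a mean of 13.9% of the control. Of 8 lung epithelial markers, EPCAM, KRT7, KRT8, KRT18 and CDH1 averaged over 1 FPKM, whereas NKX2-1, NAPSA and SFTPB, markers of the lung lineage, were below it in every library. Leukocyte and endothelial markers reached at most 0.513 FPKM, and COL1A2 and DCN, which define fibroblasts, were listed at 0. The summed fibroblast markers (COL1A1 only) held 1.15 to 1.33 FPKM in the silenced libraries and 1.96 to 2.02 FPKM in the controls, and the summed neural and glial markers (almost all MBP) 2.51 to 2.64 and 3.35 to 3.50 FPKM, and their part in the results was not tested.

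Most translation factors were well expressed and moved little. Of the 70 genes, 64 averaged at least 1 FPKM over the 6 libraries, 44 at least 10 FPKM and 7 at least 100 FPKM. The 64 were compared by limma with Benjamini-Hochberg adjustment over all 13150 genes that reached 1 FPKM, and a call required both an adjusted p under 0.05 and a log2 fold change beyond 0.5 in either direction, on log2(FPKM + 0.1), a scale that understates the change of low genes. The factors called lower in BrM3-shAKR1B10 were 4, namely EIF4EBP2, EIF6, EIF5A2 and EEF1AKMT2. They make up 6.25% of the tested factors, near the 7.45% of all tested genes that were called lower. No factor was called higher, against 5.83% of all tested genes. The count of 0 also came from limma's voom on the recovered reads. At an unadjusted p under 0.05 limma put 9 factors higher and 31 lower, and the share of all tested genes at that cut is not given here.

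Small shifts were common and went mostly down. On the adjusted p alone, 22 of 64 factors (34.4%) were lower and 7 (10.9%) were higher, beside 23.1% and 19.4% of all tested genes, and beside 29.2% and 22.0% of the tested genes with at least 5 FPKM. The split was 19 lower and 11 higher of 64 under quantile normalization, 17 and 8 of 65 under TPM scaling (17336 genes tested) and 23 and 11 of 64 by voom. The shares of all genes at these settings are not given here, so these counts stand without a background. The median log2 fold change of the factors was -0.13, beside -0.01 over all tested genes, and became -0.08 by voom (0.04 over all tested genes), -0.09 under TPM scaling (0.04) and -0.09 under quantile normalization (0.01). Of the 64 factors, 49 (76.6%) lay within 0.25 of 0, beside 58.3% of all tested genes and 64.8% of those with at least 5 FPKM. All 3 silenced libraries lay below all 3 control libraries for 32 factors and above them for 11, with 21 overlapping, where 29.2% and 25.5% of all tested genes were separated downward and upward. In bulk RNA, fewer cells of a kind and less RNA per cell cannot be told apart. Among the 29 factors past the adjusted p, no sign turned under TPM scaling, a further median-of-ratios scaling, quantile normalization or voom, although 6 lost the adjusted p under at least 1 of these (EIF2AK4, EIF3H, EIF3J, EIF4E2, EIF4G1 and EIF4G3), and 9 lost it when 1 library was left out (EEF1AKMT2, EIF2A, EIF2AK3, EIF2AK4, EIF2B4, EIF3H, EIF3L, EIF4E2 and EIF4G3). Each of the 6 libraries, when left out, cost between 4 and 7 of these genes their adjusted p. Of the 35 tested factors that did not pass, 9 passed under at least 1 other scaling or voom (EEF1A1, EEF1B2, EEF2K, EIF1B, EIF3K, EIF4A2, EIF4B, EIF4H and EIF5AL1) and 10 when 1 library was left out (EEF1AKMT1, EIF1B, EIF2B2, EIF2B3, EIF3CL, EIF4A2, EIF4B, EIF4EBP1, EIF4H and EIF5AL1).

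**Figure D1:**
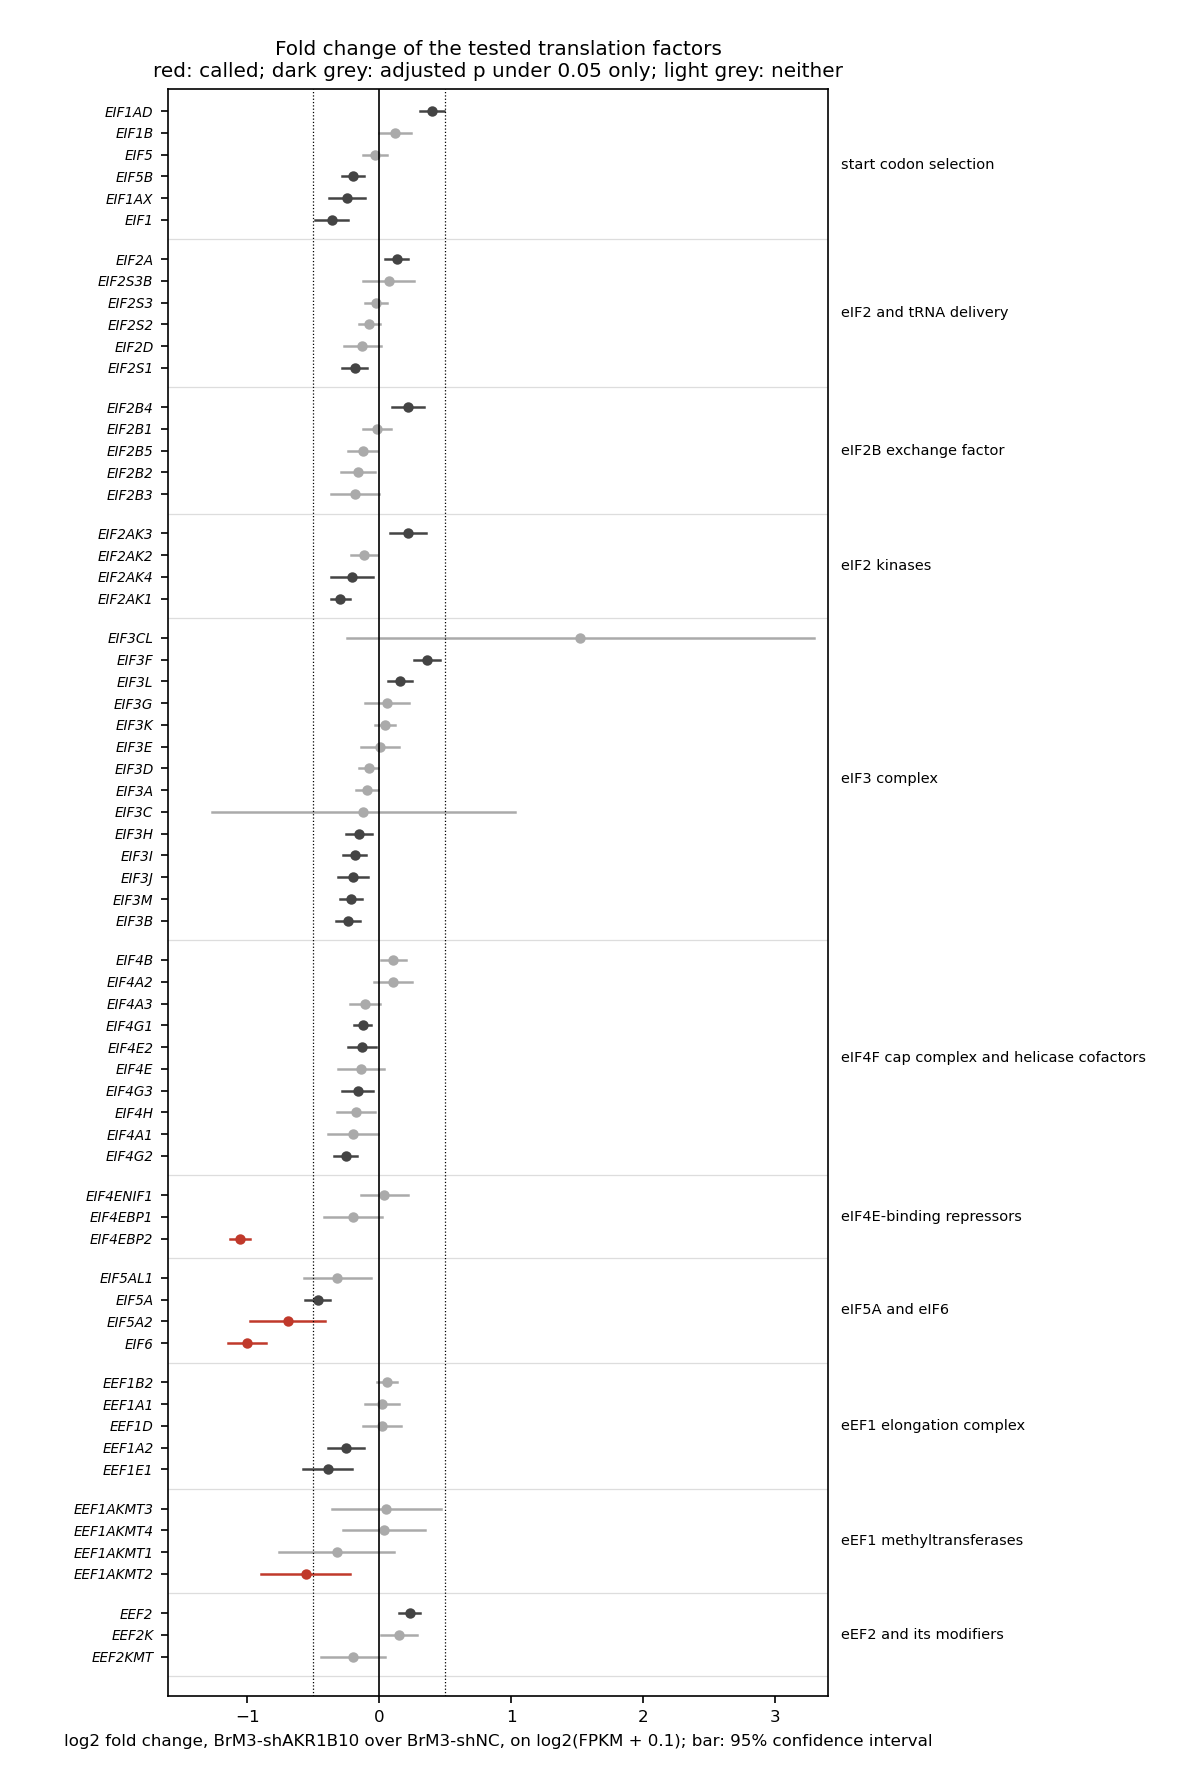
Log2 fold change of each of the 64 tested factors (points, horizontal axis, BrM3-shAKR1B10 over BrM3-shNC on log2(FPKM + 0.1)) with its 95% confidence interval (bars), ordered by functional group on the vertical axis. The 4 called genes (red) lie left of the dotted line at -0.5, no gene is called to the right, and the wide intervals of EIF3C and EIF3CL stand apart from the other subunits of eIF3.

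EIF4EBP2 showed the lowest log2 fold change of all the tested factors. It encodes 4E-BP2, which binds eIF4E and keeps it from joining eIF4G at the cap, and lies at chr10:70404379-70428618 (GRCh38, plus strand). Its level was 18.1, 18.2 and 18.8 FPKM in BrM3-shAKR1B10 replicates 1 to 3 and 38.5, 37.8 and 38.4 FPKM in BrM3-shNC. The groups were far apart and the libraries within each were close, with a mean of 18.4 ± 0.358 FPKM against 38.3 ± 0.385 FPKM (SD, n = 3 each), or 48.0% of the control. The log2 fold change was -1.05 (SE 0.031, limma adjusted p = 8.7e-06), which places the gene 173rd by size among the 980 genes called lower. None of its exon bases is shared with another annotated gene, and its 3 annotated pseudogenes held 0 reads in every library, beside 2321 to 5129 reads on the gene.

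The sister repressor EIF4EBP1 was not called. EIF4EBP1 encodes 4E-BP1, the best studied target of MTOR in this family, and was the more abundant of the pair at 42.6, 40.1 and 43.9 FPKM in the silenced libraries and 41.7, 51.9 and 52.4 FPKM in the controls. Control replicate 1 fell inside the range of the silenced libraries, and the log2 fold change of -0.20 did not pass the test (95% interval -0.42 to 0.02, adjusted p = 0.12). Without that control library the log2 fold change was -0.31 and passed the adjusted p (0.0044), still inside the fold limit. EIF4EBP2 made up 29.8%, 31.3% and 30.0% of the summed FPKM of both genes in the silenced libraries and 48.0%, 42.1% and 42.3% in the controls. The share was lower by 13.8 percentage points (30.4 ± 0.808% against 44.2 ± 3.32%, SD, n = 3 each), and the groups did not overlap, although the exact two-sided permutation p of 0.1 is the smallest that 3 against 3 libraries allow (0.27 after adjustment over 8 pairs of paralogs).

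The other repressors gave little signal. EIF4EBP3, the third 4E-binding protein, ranged from 0.159 to 1.39 FPKM with 2 to 17 reads per library and was not tested, and 73.4% of its exon bases also belong to the readthrough gene ANKHD1-EIF4EBP3. EIF4ENIF1, which carries eIF4E into the nucleus, held 3.03 FPKM in the silenced group and 2.95 FPKM in the control, a log2 fold change of 0.04 (adjusted p = 0.71).

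EIF6, which binds the large ribosomal subunit and keeps it from joining the small one too early, changed almost as much. It lies at chr20:35278911-35284985 (minus strand) and read 30.3, 30.8 and 32.9 FPKM in BrM3-shAKR1B10 and 57.9, 64.5 and 66.4 FPKM in BrM3-shNC. Each silenced library stood well below the lowest control, at 49.8% of the control mean (31.3 ± 1.39 against 62.9 ± 4.48 FPKM, SD, n = 3 each). The log2 fold change was -1.0 (SE 0.061, adjusted p = 6.1e-05), the 203rd by size among the called lower genes. A stretch of 284 bases, 17.4% of its exon bases, is also annotated to AL121753.1 on the same strand, which held between 0.535 and 1.17 FPKM. All 284 are coding, 33.3% of the coding bases of EIF6.

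EIF5A and EIF5A2, the paralogs that carry the modified lysine hypusine and help ribosomes through difficult peptide bonds, were both lower in every silenced library. EIF5A2, at chr3:170888415-170908693 (minus strand), read 1.45, 1.64 and 1.38 FPKM in the silenced libraries and 2.79, 2.41 and 2.23 FPKM in the controls, from 137 to 286 reads per library. It fell by 0.69 on the log2 scale (SE 0.118, adjusted p = 0.004) to 60.2% of the control, and its groups did not overlap. EIF5A, at chr17:7306999-7312463 (plus strand), was far more abundant, with 177, 168 and 171 FPKM against 229.5, 235 and 248 FPKM. It was lower by 0.47 on average (log2 fold change -0.47, SE 0.041, adjusted p = 0.00026), at 72.4% of the control, just inside the fold limit for a call.

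The share of EIF5A2 in the EIF5A pair overlapped between the groups. EIF5A2 was 0.86 ± 0.094% of the pair in the silenced group and 1.04 ± 0.155% in the control (SD, n = 3 each, exact two-sided permutation p = 0.2, 0.32 adjusted over the 8 pairs). As 0.1 is the smallest p possible here, the test cannot show that the balance stayed the same. EIF5AL1, an intronless copy related to EIF5A, stood lower in all silenced libraries at 3.15, 2.99 and 3.49 FPKM against 3.96, 4.59 and 3.57 FPKM, yet its log2 fold change of -0.32 missed the adjusted threshold. How reads that fit both EIF5A and its copies were assigned is not given in the sources used here. In EIF5A, 241 exon bases, which make up 37.2% of its coding bases, are shared with GPS2 on the opposite strand, which held 0.635 to 1.43 FPKM.

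The last of the called factors, EEF1AKMT2, encodes one of the lysine methyltransferases of eEF1A and lies at chr10:124748149-124791870 (minus strand). Its level was 1.30, 1.06 and 1.39 FPKM in BrM3-shAKR1B10 and 1.99, 1.97 and 1.69 FPKM in BrM3-shNC, from only 81 to 154 reads per library, with no overlap between the groups. The log2 fold change was -0.56 (SE 0.140, adjusted p = 0.019). The call was lost without BrM3-shAKR1B10 replicate 2 (-0.45), without BrM3-shNC replicate 1 (adjusted p = 0.061) and without BrM3-shNC replicate 2 (adjusted p = 0.063), and 62.1% of its coding bases are also annotated to AC068896.1.

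To show what lies upstream of the called genes, the RefSeq windows (GRCh38.p14) of 250 bases before the annotated start were searched on both strands for 5 motifs, the E-box CACGTG, the CCAAT box, the GC box GGGCGG, the TATA box TATAAA and the ETS core CCGGAAG. Of the 70 factors, 56 matched an entry by symbol. The stretches below are the upstream windows of EIF4EBP2 (chr10:70403895-70404144, plus strand), EIF5A2 (chr3:170908694-170908887, minus strand, the 194 bases that lie outside the GENCODE exon) and EEF1AKMT2 (chr10:124791888-124792137, minus strand), each written in the direction of transcription with motif matches of either strand in capitals. The windows of EIF6 overlap its annotated exons and are not printed.
EIF4EBP2: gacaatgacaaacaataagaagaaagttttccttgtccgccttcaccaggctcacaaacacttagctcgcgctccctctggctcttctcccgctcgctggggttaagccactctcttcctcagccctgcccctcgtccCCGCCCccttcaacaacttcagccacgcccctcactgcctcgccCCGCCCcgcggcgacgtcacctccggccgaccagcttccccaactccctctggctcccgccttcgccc
EIF5A2: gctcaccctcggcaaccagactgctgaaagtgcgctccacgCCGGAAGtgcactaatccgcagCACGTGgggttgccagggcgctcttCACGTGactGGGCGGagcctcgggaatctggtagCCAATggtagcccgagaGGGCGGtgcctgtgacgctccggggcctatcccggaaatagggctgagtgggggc
EEF1AKMT2: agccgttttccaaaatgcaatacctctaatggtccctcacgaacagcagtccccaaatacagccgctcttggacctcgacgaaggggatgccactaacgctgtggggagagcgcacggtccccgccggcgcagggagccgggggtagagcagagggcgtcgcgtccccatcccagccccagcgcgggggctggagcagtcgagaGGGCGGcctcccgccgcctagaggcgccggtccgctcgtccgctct

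The EIF5A2 stretch holds 2 E-boxes, 2 GC boxes, 1 CCAAT box and 1 ETS core, the EIF4EBP2 window 2 GC boxes, read on the other strand, and the EEF1AKMT2 window 1 GC box. None of these stretches holds a TATA box. Over the 56 factors with an entry, the E-box was found in 15 (26.8%), beside 7.73% of all 27305 genes in the RefSeq table and 9.84% of those that are protein-coding here. The GC box was found in 78.6% of the factors, beside 46.2% and 63.2%, and the TATA box in 5.36%, beside 13.0% and 11.6%. The CCAAT box was found in 46.4%, beside 37.0% and 40.5%, and the ETS core in 19.6%, beside 10.2% and 14.2%. The median GC content was 63.2% over the 73 windows of the factors and 58.0% over all 35093 windows, and its part in these shares was not tested. A match of letters is a description of the window, and binding was not measured here.

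Of the 6 genes listed with the start codon factors, EIF1, EIF1AX and EIF5B fell on the adjusted p (50.0%, beside 23.1% of all tested genes). EIF1AD, listed with them for its domain, rose (16.7%, beside 19.4%), and none passed the fold limit. EIF1, which holds the scanning ribosome open until a start codon is found, read 47.3, 49.5 and 46.5 FPKM in the silenced libraries and 66.1, 59.4 and 58.9 FPKM in the controls, without overlap (log2 fold change -0.36, SE 0.053, adjusted p = 0.0022). Its close paralog EIF1B did not pass the test (log2 fold change 0.12, adjusted p = 0.1).

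The share of EIF1B in the summed FPKM of the EIF1 pair was 18.5%, 16.4% and 18.5% in BrM3-shAKR1B10 and 12.2%, 13.8% and 14.3% in BrM3-shNC. All silenced libraries were above all controls, by 4.38 percentage points on average (exact two-sided permutation p = 0.1, the smallest possible, 0.27 adjusted over the 8 pairs). EIF1AD, which shares the eIF1A domain, had the largest rise among the tested factors past the adjusted p, from 12.0, 11.2 and 11.5 FPKM to 15.4, 15.4 and 15.1 FPKM (log2 fold change 0.40, SE 0.037, adjusted p = 0.00034). EIF5, the GTPase-activating partner of eIF2, held 55.2 and 56.4 FPKM on average in the silenced and control groups (log2 fold change -0.03, adjusted p = 0.54).

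The subunits of eIF2 and its partners stayed within 0.19 of 0 on the log2 scale. EIF2S1, the alpha subunit that stress kinases phosphorylate, read 18.8, 19.0 and 18.7 FPKM in the silenced libraries and 22.3, 21.7 and 20.5 FPKM in the controls. It fell with no overlap (log2 fold change -0.19, SE 0.039, adjusted p = 0.0092). The beta and gamma subunits EIF2S2 and EIF2S3 gave -0.07 (adjusted p = 0.12) and -0.02 (adjusted p = 0.6), and EIF2A, an alternative initiator tRNA carrier, rose by 0.13 (adjusted p = 0.026).

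Of the 5 subunits of eIF2B, the exchange factor that recharges eIF2 with GTP, only EIF2B4 passed the adjusted p (1 of 5 higher, beside 19.4% of all tested genes). It rose from 5.25, 4.88 and 4.88 FPKM in the controls to 6.02, 5.85 and 5.65 FPKM in the silenced libraries, with no overlap (log2 fold change 0.22, SE 0.052, adjusted p = 0.015). EIF2B1, EIF2B2, EIF2B3 and EIF2B5 lay between -0.18 and -0.02 and did not pass.

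The 4 kinases of eIF2 alpha did not move as one. EIF2AK1, the heme-regulated kinase HRI and the most abundant of them, read 34.5, 34.5 and 34.0 FPKM in the silenced libraries and 42.5, 41.1 and 42.9 FPKM in the controls (log2 fold change -0.29, SE 0.031, adjusted p = 0.00052). EIF2AK3, the endoplasmic reticulum kinase PERK, rose from 3.56, 3.60 and 3.38 FPKM to 3.95, 4.07 and 4.31 FPKM (log2 fold change 0.22, adjusted p = 0.023). EIF2AK4, the amino acid sensor GCN2, fell by 0.21 on the log2 scale (adjusted p = 0.047), and EIF2AK2, the double-stranded RNA sensor PKR, did not pass (log2 fold change -0.11, adjusted p = 0.067).

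The groups were separate for all 4 kinases, 3 downward and 1 upward, beside 29.2% and 25.5% of all tested genes. EIF2AK3 shares 819 exon bases (15.1%) and EIF2AK2 436 (4.05%) with other annotated genes, and their main overlapping genes, both on the opposite strand, held at most 0.0951 FPKM in any library. EIF2AK1 shares 532 exon bases (9.59%) with AIMP2 on the opposite strand. AIMP2, a scaffold of the aminoacyl-tRNA synthetase complex, read 7.27, 6.87 and 6.96 FPKM against 17.9, 18.9 and 20.9 FPKM (log2 fold change -1.44, adjusted p = 2.1e-05). Without strand-aware counting, reads from the shared stretch could not be told apart, whether counting used the strand is not given in the sources used here, and the part of AIMP2 in the EIF2AK1 value was not tested.

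eIF3, the large scaffold on the small subunit, was represented by 14 genes, all tested. EIF3B, EIF3H, EIF3I, EIF3J and EIF3M fell and EIF3F and EIF3L rose on the adjusted p, with none past the fold limit. These are 35.7% and 14.3% of the 14, beside 23.1% and 19.4% of all tested genes. Apart from EIF3C and EIF3CL, the 12 subunits averaged from 16.8 FPKM (EIF3F) to 146 FPKM (EIF3I) over the 6 libraries, and their log2 fold changes ran from -0.24 (EIF3B) to 0.36 (EIF3F). EIF3F, one of the MPN domain subunits, rose from 14.7, 14.4 and 14.9 FPKM in the controls to 18.2, 18.9 and 19.7 FPKM, without overlap (SE 0.040, adjusted p = 0.00065). EIF3I read 139, 139 and 132 FPKM in the silenced libraries and 151, 157 and 159 FPKM in the controls (log2 fold change -0.19, adjusted p = 0.0069).

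The 2 near-identical copies EIF3C and EIF3CL, both on chromosome 16, were the least reproducible of the tested factors. EIF3CL read 5.46, 1.18 and 11.5 FPKM in the silenced libraries and 1.27, 1.82 and 1.22 FPKM in the controls, so that silenced replicate 2 lay below every control. EIF3C read 2.49, 4.79 and 7.15 FPKM against 3.32, 3.75 and 8.84 FPKM, a wide spread in both groups. Neither passed the test (EIF3CL log2 fold change 1.52, adjusted p = 0.14, EIF3C -0.12, adjusted p = 0.86).

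Without silenced replicate 2, EIF3CL alone would be called higher (log2 fold change 2.41, adjusted p = 0.0047), and without silenced replicate 3 its log2 fold change was 0.82 (adjusted p = 0.34). The summed level of both copies was 7.95, 5.97 and 18.6 FPKM in the silenced libraries and 4.59, 5.57 and 10.1 FPKM in the controls (exact two-sided permutation p = 0.5). The summed reads of both copies also varied, at 605, 670 and 1514 in the silenced libraries and 497, 538 and 1196 in the controls. How reads that fit both copies were assigned is not given in the sources used here, and its part in the spread was not tested. The value of either gene is uncertain.

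The cap-binding complex eIF4F and its helicase partners stayed close to the control. Of the 12 genes listed here, 10 were tested, 4 fell on the adjusted p (EIF4G1, EIF4G2, EIF4G3 and EIF4E2, beside 23.1% of all tested genes) and none rose (beside 19.4%). The list also takes in EIF4A3 by its symbol (log2 fold change -0.11, adjusted p = 0.12). EIF4G2, the eIF4G relative also known as DAP5 that works without eIF4E, changed most, at 79.3, 77.6 and 78.1 FPKM in the silenced libraries and 97.5, 92.3 and 90.2 FPKM in the controls (log2 fold change -0.25, SE 0.037, adjusted p = 0.0021). EIF4G1, the main scaffold, fell by 0.13 (adjusted p = 0.011), and EIF4G3 fell by 0.16 (adjusted p = 0.036). Of the 4, only EIF4G2 kept the adjusted p under both TPM scaling and quantile normalization, where EIF4G1 gave -0.09 (adjusted p = 0.075) and -0.04 (adjusted p = 0.35). EIF4B, a cofactor of the helicase, did not pass (log2 fold change 0.11, adjusted p = 0.075), but rose under TPM scaling (adjusted p = 0.038), quantile normalization (adjusted p = 0.018) and voom (adjusted p = 0.002).

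EIF4E itself read 3.37, 3.32 and 2.91 FPKM in the silenced libraries and 3.63, 3.41 and 3.54 FPKM in the controls. The silenced libraries were all below the controls, but the log2 fold change of -0.14 did not pass (95% interval -0.31 to 0.04, adjusted p = 0.18). Its 5 annotated pseudogenes held reads equal to 14.6% to 20.2% of those of the gene. EIF4E2, a cap-binding relative that represses translation, made up 76.9 ± 1.48% of the summed EIF4E and EIF4E2 level in the silenced group and 76.8 ± 0.382% in the control (SD, n = 3 each, exact two-sided permutation p = 0.9).

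EIF4A2, a DEAD-box RNA helicase, was far above its paralog EIF4A1 in the table, at 78.2 to 93.7 FPKM against 2.46 to 3.19 FPKM per library. Neither passed the test, with log2 fold changes of 0.10 (adjusted p = 0.21) and -0.20 (adjusted p = 0.085), although EIF4A2 passed by voom (log2 fold change 0.15, adjusted p = 0.011) and without control replicate 1 (0.16, adjusted p = 0.043). Of the 1539 coding bases of EIF4A1, 1336 (86.8%) are shared with other annotated genes on the same strand, and its 13 annotated pseudogenes held reads equal to 57.2% to 83.5% of its own. The part of either in the level of EIF4A1 was not tested. EIF4H, the cofactor of the helicase and the fourth most abundant factor, read 146, 134 and 145 FPKM against 147, 165 and 168 FPKM, all silenced libraries below all controls (log2 fold change -0.18, adjusted p = 0.053, and 0.0095 without control replicate 1).

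EIF4E1B and EIF4E3, the tissue-restricted relatives of eIF4E, held at most 10 reads in any library and were not tested. Together with EIF4EBP3, EEF1G and both readthrough genes below they complete the 6 untested factors.

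EEF1A1, which delivers aminoacyl-tRNAs to the ribosome, was the most abundant factor by far and held 37.2% to 40.9% of the summed FPKM of all 70 genes in each library. It read 1919.9, 2017 and 1904 FPKM in BrM3-shAKR1B10 and 2033, 1815 and 1905 FPKM in BrM3-shNC, with the groups overlapping. Its log2 fold change was 0.02 (95% interval -0.10 to 0.15, adjusted p = 0.76), and its direction turned under quantile normalization (-0.22, adjusted p = 0.041). Reads on its 39 annotated pseudogenes came to 3.51% to 5.18% of its own.

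EEF1A2, the paralog best known from muscle and neurons and also found in tumours, fell from 83.1, 89.7 and 93.4 FPKM to 73.2, 71.1 and 78.9 FPKM (log2 fold change -0.25, SE 0.057, adjusted p = 0.013). It made up 3.68 ± 0.286% of the pair in the silenced group and 4.44 ± 0.442% in the control (SD, n = 3 each, exact two-sided permutation p = 0.2, 0.32 adjusted over the 8 pairs). EEF1E1, also called AIMP3 and part of the same synthetase scaffold as AIMP2, fell from 7.99, 7.13 and 6.87 FPKM to 5.35, 6.05 and 5.33 FPKM without overlap (log2 fold change -0.39, SE 0.078, adjusted p = 0.0077). The exchange subunits EEF1B2 and EEF1D gave 0.06 (adjusted p = 0.18) and 0.02 (adjusted p = 0.8).

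EEF1G, the gamma subunit of eEF1, was listed at 0 in all 6 libraries. The annotation offers a measurement beside this value, as 2714 of its 2716 exon bases (99.9%) are shared with AP002990.1 on the same strand, which held 0.295 to 0.792 FPKM. The readthrough genes EEF1E1-BLOC1S5 and EEF1AKMT4-ECE2 share all of their exon bases with other genes and were also listed at 0. How reads on overlapping genes were counted is not given in the sources used here, and the part of overlap in these zeros was not tested.

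EEF2, the translocase that moves the ribosome along the message, rose in every silenced library. It read 547, 561 and 571 FPKM in BrM3-shNC and 659, 643 and 668 FPKM in BrM3-shAKR1B10, with no overlap and 117% of the control mean (log2 fold change 0.23, SE 0.034, adjusted p = 0.0021). EEF2K, the kinase that inactivates eEF2, was above the controls in all silenced libraries but did not pass (log2 fold change 0.15, adjusted p = 0.072), and EEF2KMT, its lysine methyltransferase, gave -0.20 (adjusted p = 0.16). The other eEF1 methyltransferases EEF1AKMT1, EEF1AKMT3 and EEF1AKMT4 overlapped between the groups, with log2 fold changes of -0.32, 0.05 and 0.04. Without silenced replicate 2, EEF1AKMT1 would be called lower (log2 fold change -0.51, adjusted p = 0.036) while EEF1AKMT2 would not.

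Summed over all 70 genes, the factors held 4863, 4935 and 4853 FPKM in the silenced libraries and 5084, 4882 and 5013 FPKM in the controls. Silenced replicate 2 lay above control replicate 2, so the groups overlapped (exact two-sided permutation p = 0.2, where 0.1 is the smallest possible). Without EEF1A1, the other 69 genes held 2943, 2918 and 2948 FPKM against 3051, 3067 and 3108 FPKM, each silenced library below each control (p = 0.1 by the same exact permutation test, the smallest possible). Both comparisons changed when the sums were scaled by the reads on all genes, an alternative chosen after the data were seen. The sum over all 70 was then 4981, 5046 and 4946 against 4986, 4866 and 4949 (exact permutation p = 0.5), and without EEF1A1 it was 3014, 2983 and 3005 against 2992, 3058 and 3068 (exact permutation p = 0.3), with control replicate 1 among the silenced libraries. As deposited, the sum over all 70 was 1.62% to 1.66% of the FPKM of all genes in every library.

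A further 56 genes of the translation machinery outside the symbol rule were examined in the same fit, covering termination and recycling factors, poly(A)-binding proteins, accessory initiation proteins, kinases upstream of eIF4E, regulators of eIF2 phosphorylation, hypusine and diphthamide enzymes, and mitochondrial factors. Of these, 53 were tested, 2 were called lower (3.77%, beside 7.45% of all tested genes) and none higher (beside 5.83%). On the adjusted p alone 16 fell (30.2%) and 8 rose (15.1%), beside 23.1% and 19.4% of all tested genes. Of these 24, 13 lost the adjusted p when 1 library was left out and 7 under another scaling or voom. The split on the adjusted p was 12 and 9 of 53 under quantile normalization, 10 and 8 of 55 under TPM scaling and 13 and 12 of 53 by voom. These counts too stand without the shares of all genes at the same settings. The count of 0 called higher by limma was also 0 by voom and became 1 under quantile normalization. At an unadjusted p under 0.05 limma put 8 genes higher, again without a share of all tested genes at that cut. The median log2 fold change was -0.08. On the adjusted p, 28.6% of tested termination and recycling genes, 33.3% of accessory initiation genes, 28.6% of the kinases and 30.0% of mitochondrial factors were lower. In the same order, 0%, 16.7%, 0% and 0% were higher.

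MTOR, the kinase that phosphorylates the 4E-binding proteins, fell most, from 7.78, 8.18 and 8.56 FPKM to 3.42, 3.55 and 3.63 FPKM (log2 fold change -1.19, SE 0.053, adjusted p = 2.3e-05). PAIP2B, an inhibitor of poly(A)-binding protein, gave -0.55 (adjusted p = 0.021), a call lost without either of silenced replicates 2 and 3 (adjusted p = 0.06 and 0.059) and without either of control replicates 1 and 2 (adjusted p = 0.072 and 0.056). Among the enzymes that modify eIF5A and eEF2, the hypusine enzymes DHPS and DOHH did not pass (log2 fold changes 0.14 and -0.10), while the diphthamide enzymes DPH1, DPH5 and DPH7 rose by 0.35, 0.33 and 0.22 on the log2 scale, 37.5% of the 8 tested genes of this list beside 19.4% of all tested genes. DPH2, DPH3 and DNAJC24 of the same pathway did not pass (0.08, -0.14 and -0.05), and DPH6 was not tested. Without silenced replicate 2, DPH5 and DPH7 lost the adjusted p (0.051 and 0.059), as did DPH7 without silenced replicate 1 (0.062).

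Of the 9 regulators of eIF2 phosphorylation, 5 fell (55.6%) and 2 rose (22.2%) on the adjusted p, beside 23.1% and 19.4% of all tested genes, and both targeting subunits of the eIF2 alpha phosphatase fell by similar amounts. PPP1R15A, the stress-induced subunit GADD34, read 14.3, 14.7 and 13.5 FPKM in the silenced libraries and 18.2, 17.6 and 18.7 FPKM in the controls (log2 fold change -0.36, adjusted p = 0.0011). PPP1R15B, the constitutive subunit, gave -0.35 (adjusted p = 0.0011), and the catalytic subunit PPP1CC gave -0.40 (adjusted p = 0.00052). The catalytic subunits PPP1CA and PPP1CB gave -0.26 and -0.16 (adjusted p = 0.028 and 0.017), and both lost it under quantile normalization and when some single libraries were left out. DNAJC3, an inhibitor of eIF2 alpha kinases, rose by 0.28 (adjusted p = 0.023) and the adaptor NCK1 by 0.19 (adjusted p = 0.015), each losing the adjusted p without at least 1 library. None of the 9 passed the fold limit. PABPC1, which bridges the poly(A) tail and eIF4G, rose from 438, 403 and 423 FPKM to 481, 492 and 491 FPKM (log2 fold change 0.21, adjusted p = 0.0057). In its list PABPC1L also rose (0.44, adjusted p = 0.0019) and PAIP1 fell (-0.29, adjusted p = 0.0019). Of the 6 tested genes of that list, 2 fell and 2 rose on the adjusted p (33.3% each, beside 23.1% and 19.4% of all tested genes).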

How the data were processed

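Poly(A) RNA libraries from 3 BrM3-shAKR1B10 and 3 BrM3-shNC samples of PC9-BrM3 cells were sequenced, and groups and replicate numbers came from the labels. Per the study's methods and its processing notes, the authors aligned filtered reads with HISAT2 2.0.5, counted them per gene with featureCounts 1.5.0-p3 and deposited FPKM values for 58735 genes, without pooling replicates. The aligned genome build is not given in the sources used here, and all gene identifiers and positions match GENCODE 29 (GRCh38). The counting's handling of strand and overlapping genes is not given in the sources used here. Deposited gene lengths and FPKM gave back whole reads for 100% of values (tolerance 0.01), so 3 reads on a gene of 1 kb equal 0.163 to 0.177 FPKM, a limit that covers counting error only. The library size behind the deposited FPKM was 1.92% to 2.42% above the recovered reads on genes in the silenced libraries and 0.314% to 1.92% below them in the controls, a difference of 0.05 on the log2 scale between the groups; the reason is not given in the sources used here. Replicates of a group differed by 2.35 to 4.97 in chi-square per gene, more than the value near 1 that counting noise alone gives, so no library was listed again under another number. This does not tell separate cultures from libraries of the same RNA.

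In R 4.3.3, limma 3.58.1 (eBayes with a mean-variance trend) was run on log2(FPKM + 0.1) for the 13150 genes with a mean of at least 1 FPKM. A call required a Benjamini-Hochberg adjusted p under 0.05 together with a log2 fold change beyond 0.5 in either direction. The code was tested on simulated data. Shares of 8 paralog pairs were compared by exact two-sided permutation. Exon overlap came from GENCODE 29 and upstream windows from RefSeq (GRCh38.p14), searched in Python 3.11.15. All factors and all genes of the other lists are accounted for, and those described singly were named by their roles, calls and paralog pairs. The members and lists were chosen with earlier results of these data known. Pseudocounts, filters, scalings, voom on recovered reads, fold limits, a replicate block and leaving out each library were tried as alternatives.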

Additional observations from a re-analysis of the deposited data

How the results depend on the processing

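EIF4EBP2 and EIF6 were called lower under every alternative that was run. The 4 factors called lower became 2 with a pseudocount of 1, with a mean of at least 5 FPKM or with a fold limit of 1, and 22 without a fold limit, and ranged from 3 to 4 when a library was left out. EIF5A2 lost its call with a pseudocount of 1 (log2 fold change -0.48), as did EEF1AKMT2 (-0.36). The 0 factors called higher became 7 without a fold limit and ranged from 0 to 1 when a library was left out. The genes outside the symbol rule gave 1 lower with a pseudocount of 1, at least 5 FPKM or a fold limit of 1, 16 without a fold limit, and 1 to 2 when a library was left out, while 0 higher became 1 under quantile normalization, 8 without a fold limit, and 0 to 1 when a library was left out. The direction of EEF1A1 turned under quantile normalization (-0.22), without BrM3-shAKR1B10 replicate 2 (-0.002) and without BrM3-shNC replicate 2 (-0.016), within a range of -0.016 to 0.066 when a library was left out. The summed level of all 70 factors differed by -109 FPKM (silenced minus control), which turned to 57.0 FPKM when scaled by the reads on all genes, and without EEF1A1 went from -139 to -38.5 FPKM. Replicate numbers did not pair the samples, as same-numbered libraries deviated with correlations of -0.0155, 0.00388 and 0.00383, and the fit with the number as a block called 3 factors lower and 0 higher (EEF1AKMT2 adjusted p = 0.052). Among the values recomputed for single genes, 427 kept their direction and their side of the joint rule of adjusted p and fold limit, 11 lost the call, 1 gained it and 3 turned, and on the adjusted p alone 33 lost it and 10 gained it. The cause of these changes was not tested. With 3 libraries per group a permutation cannot give a p under 0.1, and EEF1AKMT2 rests on 81 to 154 reads per library.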
